A study of Homo sapiens with 45 samples.

Results

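The 3′ trailers of precursor tRNAs were measured in small-RNA libraries of HCT116 cells, a human colorectal carcinoma line, that lacked Argonaute (AGO) or TNRC6 proteins. Members were chosen by their summed count: all features named as precursor tRNA in the deposited count table with at least 50 counts over the 45 libraries. The rule kept 161 of 378 precursor tRNA features, among 167112 features in all, and every precursor tRNA feature is named as a trailer in the table, so no 5′ leader or intron was counted under these names. Of the 161 members, 147 belong to nuclear tRNA genes and 14 to mitochondrial ones, and together they held 316322 of the 319166 precursor tRNA counts, or 99.1%. The lowest ones kept were Gly-GCC-2-2 with 51 counts and Asn-GTT-2-3 with 50, while the highest ones left out were Val-AAC-1-4 with 49 and Ala-AGC-3-1 with 48.

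Nuclear tRNA genes are transcribed by RNA polymerase III, which stops at a run of T in the non-template strand, so that a fresh precursor carries a 5′ leader and a 3′ trailer ending in U residues. The La protein (SSB) binds that U-rich end, RNase P removes the leader, and RNase Z (ELAC2) cuts off the trailer just after the tRNA's acceptor stem. The released trailer is a short RNA with a free 3′ end, and the trailer of the serine tRNA gene Ser-TGA-1-1 has been described as the fragment tRF-1001. Trailers differ between gene copies whose mature tRNAs are identical, so they report on the individual gene. Mitochondrial tRNAs are cut out of long polycistronic transcripts, and what follows them is often the next gene.

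The study compared whole-cell small RNA with RNA bound to AGO proteins, the carriers of microRNAs, and with RNA from cells without AGO or TNRC6 proteins, the AGO partners in silencing. Whole-cell RNA came from 8 groups. These were wild-type (WT) HCT116, AGO1-/-, AGO2-/-, AGO1-/- AGO2-/- (AGO1/2 KO), AGO1-/- AGO2-/- AGO3-/- (AGO1/2/3 KO), TNRC6A-/-, TNRC6B-/-, and TNRC6A-/- TNRC6B-/- (TNRC6A/B KO). RNA from immunoprecipitation (IP) came from 7 groups: antibody 2A7 against AGO1 was used on WT and on AGO1 KO, an antibody against AGO2 on WT and on AGO2 KO, and the pan-AGO antibody on WT and on the AGO1/2 and AGO1/2/3 knockouts. In every group 3 libraries were labelled as biological replicates. The labels name no clone, so whether the replicates of a knockout are 1 clone is not known, and p-values measure the spread between these libraries.

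Gene names follow the pattern amino acid, anticodon, mature-sequence family and gene copy. Trailer sequences are shown for Gln-TTG-2-1, Pro-TGG-3-2 and Val-CAC-1-1, which carry results, and for Thr-AGT-1-2 and Pro-TGG-3-5, the longest and the shortest that could be read. They were read from GENCODE v29 transcripts that run across the tRNA gene and, for Pro-TGG-3-2 and Pro-TGG-3-5, from RefSeq promoter windows, on GRCh38. The final run of T, where transcription is expected to stop, is in capitals.
Thr-AGT-1-2, chr17:8226209-8226234, - strand: ttattcaattgaaacagcgtgaTTTT
Gln-TTG-2-1, chr6:28589451-28589468, + strand: ttcaaaggtgaacgTTTT
Pro-TGG-3-2, chr14:20684088-20684104, + strand: tcgtggctactgTTTTT
Val-CAC-1-1, chr1:161399683-161399699, - strand: aagtggttcccgTTTTT
Pro-TGG-3-5, chr16:3188166-3188171, + strand: ccTTTT

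Of 14 nuclear members whose first 30 bases after the tRNA could be read in these tables, 10 held TTTT on the tRNA strand, and the distance from the tRNA's end to the end of that run was 6 to 26 bases with a median of 17. The same 4 letters stood on the printed strand in the first 30 bases of 12.2% of 35116 RefSeq promoter windows. The histidine genes His-GTG-1-7 and His-GTG-1-8 have no such run in their first 30 bases. Their tRNA bodies are identical over 72 bases, and their next 30 bases differ at 5 places, shown in capitals, the first of them base 6.
His-GTG-1-7, chr15:45198576-45198605, - strand: ttgtgGgAacaatggcacggcaaggggCTC
His-GTG-1-8, chr15:45200383-45200412, - strand: ttgtgAgGacaatggcacggcaaggggAGT

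The trailers of mitochondrial tRNAs have no such ending. The first bases after tRNA-Phe and tRNA-Met are also the first bases of the small ribosomal RNA MT-RNR1 and of the ND2 messenger RNA, and reads from a trailer and from the 5′ end of the next RNA cannot be told apart there.
MT-Phe-GAA, mitochondrial positions 648 to 667, + strand: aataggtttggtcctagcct
MT-Met-CAT, mitochondrial positions 4470 to 4489, + strand: attaatcccctggcccaacc
The gene after tRNA-Gly, ND3, likewise starts at position 10059, next to the tRNA's end at 10058.

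Library totals ran from 1783590 to 9860313 counts, and the members' own counts from 449 to 22708 a library. Levels are given as CPM, the usual scaling of a row's counts to the library's total. In WT whole-cell RNA the epithelial microRNA miR-200c-3p held 3119 to 3684 counts a library, against 0 to 3 for the red-cell microRNA miR-451a. Other markers of cell type were mixed. Of the epithelial and colon ones, miR-200b-3p held 334 to 383, but miR-141-3p, miR-192-5p and miR-194-5p held only 8 to 25. The stromal miR-145-5p was above these at 81 to 108, and the liver miR-122-5p was similar to them at 13 to 24. The blood, muscle and neural markers miR-142-3p, miR-223-3p, miR-133a-3p and miR-124-3p held 1 to 8. Counts of transcripts of the targeted genes were low: AGO1 held 22 to 36 counts in WT and 4 to 12 in AGO1 KO whole-cell libraries, AGO3 22 to 48 in WT and 2 to 10 in AGO1/2/3 KO, TNRC6A 42 to 65 in WT and 16 to 44 in TNRC6A KO, and TNRC6B 82 to 88 in WT and 14 to 55 in TNRC6B KO. AGO2 held 71 to 107 in WT, 35 to 72 in AGO2 KO and 95 to 117 in AGO1/2 KO, and since the deleted part is not given, these sums check little. Libraries of the TNRC6 knockouts stood apart in their make-up. Mature cytosolic tRNA took 0.717% to 1.20% of their counts against 12.9% to 28.2% in the other whole-cell libraries, and 28S and 18S rRNA took 43.7% to 53.7% against 13.9% to 37.1%. Their titles also lack a prefix that the other whole-cell titles carry, whose meaning the labels do not give, so a difference in preparation and the genotype cannot be told apart.

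A small set of genes supplied most of the trailer counts. Ser-TGA-1-1 alone held 40.2% of all member counts, and the 5 highest members held 64.0%. These are Ser-TGA-1-1 (chromosome 10, 67764503 to 67764584), Thr-CGT-3-1 (chromosome 6, 28648207 to 28648280), Leu-TAG-3-1 (chromosome 16, 22195711 to 22195792), Ile-AAT-5-2 (chromosome 6, 27177215 to 27177288) and Val-TAC-3-1 (chromosome 10, 5853711 to 5853783), all tRNA coordinates on GRCh38 and all between annotated genes. Only 16 members had counts in all 45 libraries, and 63 held fewer than 200 counts in sum. RefSeq matched 146 of the 147 nuclear members, of which 51 lie on chromosome 6, 24 on chromosome 1, 14 on chromosome 17 and 12 on chromosome 16. By position 104 lie between genes, 31 in introns and 11 in exons of other transcripts. Trailer lengths are not given, so these are orders of counts and not of levels per length.

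Summed over amino acids, the 12 serine members held 136749 counts (43.2%), the 13 threonine members 33284 (10.52%), the 6 isoleucine members 23209 (7.34%), the 14 leucine members 22660 (7.16%), the 11 valine members 19174 (6.06%) and the 7 histidine members 14517 (4.59%). The 14 mitochondrial members held 8580 counts (2.71%). Tryptophan, with 300 counts, and tyrosine, with 576, were the lowest. The nuclear members fall into 99 families of identical mature tRNA by name, of which 28 have at least 2 members. Since copies of a family share a body and near-identical trailers can share reads, counts of close copies such as His-GTG-1-7 and His-GTG-1-8 are uncertain as a split between the genes.

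**Figure D1:**
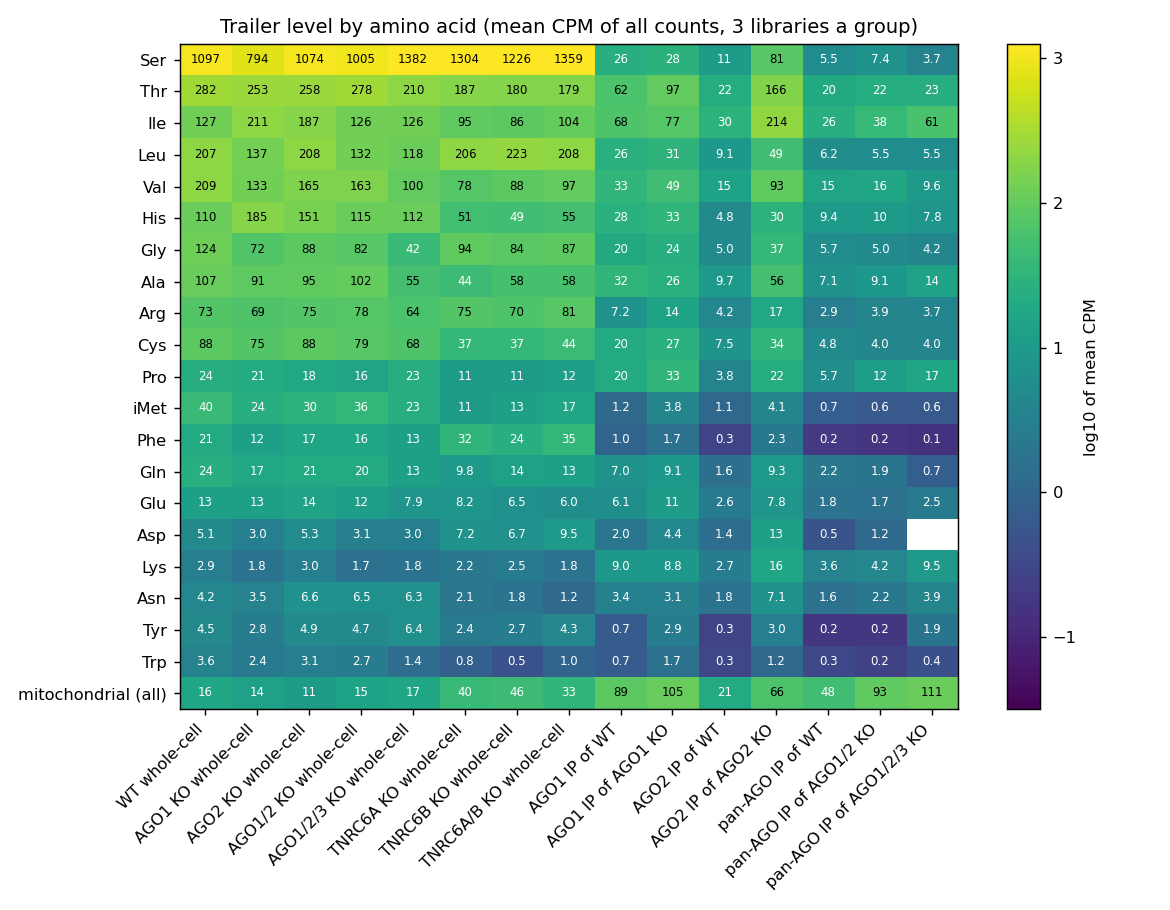
Mean CPM of trailers by amino acid (rows) in the 15 groups (columns), 3 libraries a group, with the value in each cell and the colour on a log10 scale; the blank cell is aspartate in the pan-AGO IP of AGO1/2/3 KO, at 0 counts. Serine is the highest row in every whole-cell group, at 794 to 1382 CPM, and in the pan-AGO IPs the row of all mitochondrial trailers is above every nuclear row.

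Trailers took a similar share of whole-cell counts in all 8 genotypes, with group means of 0.214% to 0.258%. A share of counts is not an amount of RNA, and the make-up of the TNRC6 knockout libraries differed. In WT, trailers took 0.252%, 0.282% and 0.240% of all counts, a mean of 0.258% ± 0.0213 (SD, n = 3). The knockout means lay between 0.214% ± 0.0205 in AGO1 KO and 0.252% ± 0.0576 in AGO2 KO (SD, n = 3 each). Libraries of AGO1 KO, AGO1/2 KO and TNRC6B KO were all below the lowest WT library, by 1.21-fold, 1.13-fold and 1.158-fold between means, and those of the other 4 knockouts overlapped WT. The 95% Wilson interval of a library's share reached at most 2.32% of the value to either side in whole-cell RNA and 9.26% in IP libraries, which covers counting error only. In these bulk libraries fewer cells holding a trailer and less of it per cell cannot be told apart.

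In AGO IP libraries trailers took a far smaller share of counts. The AGO2 IP of WT had 0.0157%, 0.0167% and 0.0141% of its counts in trailers, 16.7-fold below whole-cell RNA between means, and the pan-AGO IP had 0.0197%, 0.0181% and 0.0124%, 15.4-fold below. The AGO1 IP of WT ranged from 0.0184% to 0.0874%, 5.58-fold below whole-cell RNA. Its log2 ratio of means to whole-cell RNA was -2.48, and -3.33 without replicate 1 of that IP, its highest library. None of these IP libraries reached the lowest whole-cell library. Mature cytosolic tRNA, at 0.187% to 4.07% of counts in the IP libraries, was also below its whole-cell share in WT and the AGO knockouts.

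Nuclear and mitochondrial trailers differed here. Nuclear trailers made 2566 ± 210 CPM in WT whole-cell RNA, and 374 ± 383, 134 ± 10.7 and 119 ± 31.6 CPM in the AGO1, AGO2 and pan-AGO IPs of WT (SD, n = 3). Mitochondrial trailers made 16.2 ± 2.69 CPM in WT whole-cell RNA, and 89.0 ± 32.4, 20.7 ± 2.65 and 48.2 ± 14.8 CPM in the same IPs (SD, n = 3). Replicate 1 of the AGO1 IP held 812 CPM of nuclear trailers, and replicates 2 and 3 held 206 and 104. On this scale every WT IP library was above the highest WT whole-cell library for mitochondrial trailers and below the lowest for nuclear ones. Of all features tested, 79.5%, 8.52% and 73.9% lay above in this way in the AGO1, AGO2 and pan-AGO IPs, and 4.55%, 32.4% and 6.93% below. With the AGO1 and pan-AGO antibodies the mitochondrial trailers thus went the way of most features. As a share of trailer counts, mitochondrial members made a mean of 0.624% in WT whole-cell RNA and 29.4%, 13.3% and 28.9% in the AGO1, AGO2 and pan-AGO IPs, a description with no test.

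**Figure D2:**
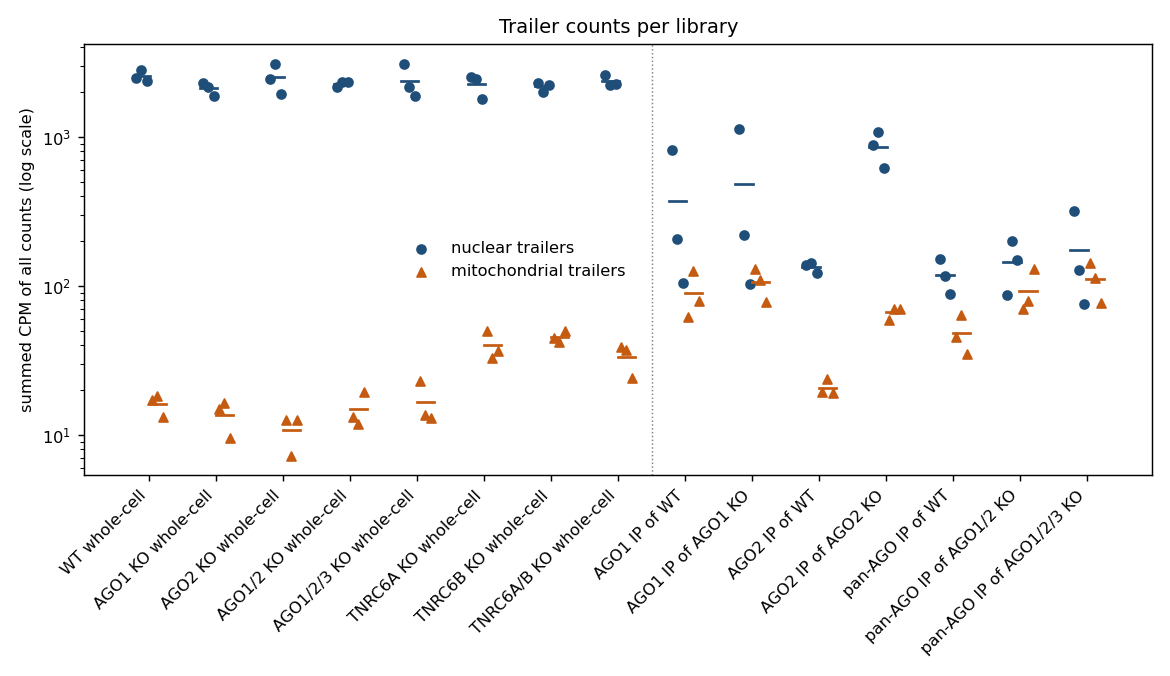
Summed CPM of all nuclear (circles) and mitochondrial (triangles) trailers in each library on a log axis, with a bar at the group mean; whole-cell groups are left of the dotted line and IP groups right of it. Nuclear trailers sit between 75.5 and 1136 CPM in the IP libraries against 1789 to 3112 in whole-cell RNA, and mitochondrial ones between 18.97 and 144 against 7.25 to 50.1.

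Member by member, and with no filter, mean CPM was lower in the IP than in whole-cell RNA of WT cells for 117, 137 and 135 of the 147 nuclear trailers with the AGO1, AGO2 and pan-AGO antibodies. It was higher for 14, 10 and 12 of the 14 mitochondrial ones. A stricter measure, with no overlap of CPM between libraries, was counted over features that passed the filter on low counts. By it 43, 68 and 66 of 72 nuclear members were lower in the IP, and 3, 2 and 2 were higher. Of 7 mitochondrial members, 0, 1 and 0 were lower and 6, 3 and 5 higher. Of all features tested, 4.55%, 32.4% and 6.93% were lower, and 79.5%, 8.52% and 73.9% were higher. These member counts share the limit of the filter given below. Tests used edgeR's quasi-likelihood model on the counts of all features with TMM scaling and Benjamini-Hochberg adjustment over all features, and a member is called at an adjusted p of at most 0.05. Of the 161 members, 79 passed the filter on low counts here, 72 of them nuclear. In the AGO1 IP 0 were called higher and 63 lower, beside 12.2% of all features tested called higher and 15.1% lower. The AGO2 IP gave 3 higher and 56 lower (7.25% and 8.9% of all features), and the pan-AGO IP 0 higher and 68 lower (13.1% and 15.5% of all features). DESeq2 also called 0 higher in the AGO1 and pan-AGO IPs. Of the members called lower, 50 of 63, 44 of 56 and 52 of 68 would not have passed the filter without the whole-cell libraries, where they are high, so these counts and the medians of tested members describe those members and are no support for a difference between the classes. With scaling by library totals in place of TMM, 11 were called higher with the AGO1 antibody and 51 lower, and 8 higher with the pan-AGO antibody and 66 lower. The median over the tested nuclear members was a log2 fold change of -4.43, -3.46 and -5.82 for the 3 antibodies, and over the 7 tested mitochondrial members it was 0.59, 0.97 and -0.04, beside 0.06, -0.04 and 0.10 over all features. TMM and library totals place the median of all features differently here, at 2.23, -0.51 and 1.89 with totals.

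Ser-TGA-1-1, the highest trailer of whole-cell RNA, was among the most depleted. Its levels were 1059, 1077 and 892 CPM in WT whole-cell RNA, against 30.04, 3.74 and 1.58 in the AGO1 IP, 8.95, 6.22 and 3.32 in the AGO2 IP, and 1.68, 3.27 and 2.66 in the pan-AGO IP. The groups did not overlap, and it fell by a log2 fold change of -8.32 ± 1.04 (SE), -6.87 ± 0.98 and -10.36 ± 1.14 (adjusted p = 1.34e-05, 7.36e-05 and 2.54e-06, edgeR). Other members were close to absent: Val-AAC-1-5 had 0 counts in the pan-AGO IP against 128 in whole-cell RNA, at least 45.2-fold lower with 3 counts over the group as the floor. Thr-TGT-2-1 had 2 counts in the pan-AGO IP against 453, a depth-corrected ratio of 240 (95% counting interval 66.1 to 1989). Pro-TGG-3-2, shown above, had 1 count in the AGO1 IP against 280, a ratio of 178 (31.8 to 7071), and Val-TAC-1-2 had 0 against 75, at least 15.9-fold lower. Arg-CCT-3-1 had 3 counts in the AGO2 IP against 198, a ratio of 105 (35.5 to 514), and Ser-GCT-5-1 had 1 against 56, a ratio of 89.2 (15.4 to 3587). The initiator methionine trailer iMet-CAT-1-3 fell by a log2 fold change of -8.62 ± 0.57 in the AGO1 IP, and the alanine trailer Ala-TGC-2-1 by -8.92 ± 0.58 in the pan-AGO IP (SE; adjusted p = 3.2e-08 and 1.52e-08, edgeR). Other alanine trailers differed from it: Ala-TGC-4-1 had 5, 7 and 5 counts in the pan-AGO IP against 3, 3 and 1 in whole-cell RNA and did not pass the test (adjusted p = 0.702, edgeR). Phe-GAA-1-2 fell by a log2 fold change of -5.92 ± 0.48 in the AGO2 IP (SE; adjusted p = 6.88e-07, edgeR). Most members called lower passed the filter only through whole-cell libraries, where they are high. The tests of iMet-CAT-1-3, Ala-TGC-2-1 and Phe-GAA-1-2 are therefore given as description and are no support for a fall.

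The isoleucine trailer Ile-AAT-5-2 stayed closer to its whole-cell level. It had 89.3, 97.9 and 91.5 CPM in WT whole-cell RNA, against 136, 38.4 and 15.1 in the AGO1 IP, 30.2, 31.9 and 25.1 in the AGO2 IP and 34.0, 25.1 and 13.7 in the pan-AGO IP. The AGO1 IP groups overlapped, and the others did not. The log2 fold changes were -2.48 ± 0.63, -1.20 ± 0.60 and -3.79 ± 0.66 (SE; adjusted p = 0.00699, 0.212 and 0.000316, edgeR), so the AGO2 IP value missed the threshold. With library totals the AGO2 IP value passed it and the AGO1 IP value did not, at -1.68 and -0.57. Isoleucine members made 4.92% of trailer counts in WT whole-cell RNA and 12.7%, 19.4% and 14.9% in the AGO1, AGO2 and pan-AGO IPs of WT. Serine members went the other way, from 42.5% to 4.20%, 6.94% and 3.42%.

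The 3 members that rose in the AGO2 IP were Lys-TTT-3-1, MT-Thr-TGT and MT-Met-CAT. The lysine trailer Lys-TTT-3-1 had 1.77, 2.88 and 2.85 CPM in the IP against 0.548, 0.979 and 0.182 in whole-cell RNA, a log2 fold change of 2.61 ± 0.76 (SE; adjusted p = 0.0241, edgeR), and the groups did not overlap. It passed the filter on low counts through IP libraries alone, where it is high, so its test is no support for the rise. MT-Thr-TGT had 4.24, 3.92 and 3.68 CPM against 2.56, 1.37 and 2.19, a log2 fold change of 1.41 ± 0.32 (SE; adjusted p = 0.00483, edgeR). MT-Met-CAT, which starts the ND2 messenger RNA as well, had 2.47, 2.76 and 2.13 CPM against 1.46, 1.96 and 1.09, a log2 fold change of 1.19 ± 0.36 (SE; adjusted p = 0.0283, edgeR). Groups did not overlap for either mitochondrial trailer, but neither passed the threshold with library totals, at 0.94 and 0.71. The calls of Lys-TTT-3-1 and MT-Met-CAT were each lost in 4 of the fits that leave out 1 library.

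**Figure D3:**
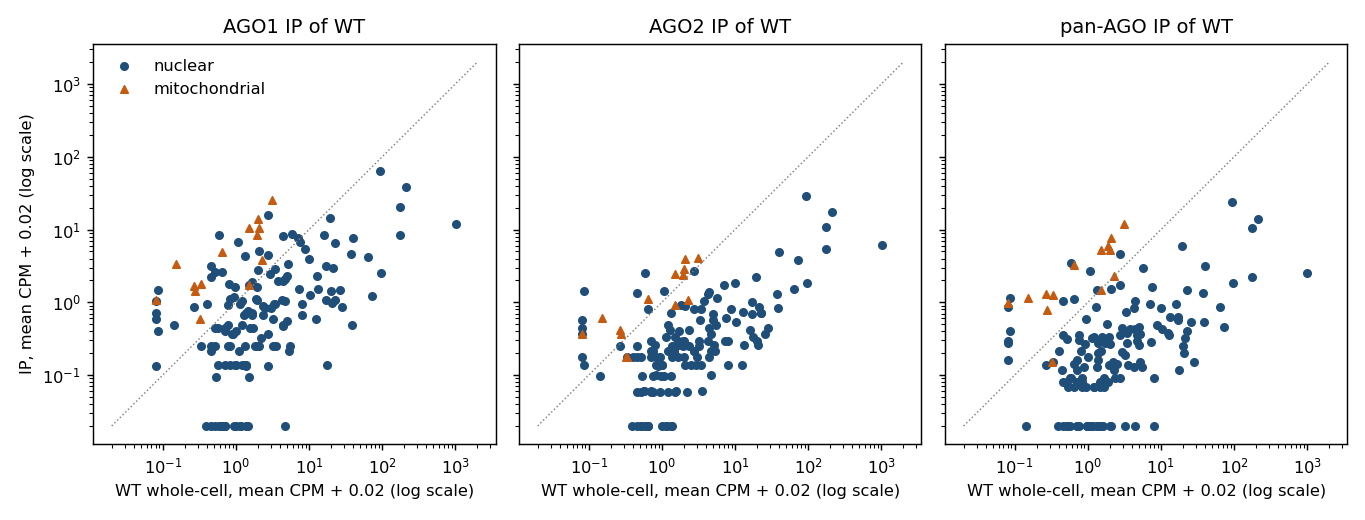
Mean CPM of each of the 161 trailers in the IP of WT cells (y) against WT whole-cell RNA (x), 1 panel per antibody, on log axes with the small constant named on the axes added so that trailers at 0 appear; the dotted line marks equal values. Of the 147 nuclear trailers (circles), 117, 137 and 135 lie below the line, with Ser-TGA-1-1 farthest right, and 14, 10 and 12 of the 14 mitochondrial trailers (triangles) lie above it. By a stricter measure than the mean, 79.5%, 8.52% and 73.9% of all features tested were higher by CPM in every library of the AGO1, AGO2 and pan-AGO IPs.

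The same antibodies were used on knockout cells, and the IPs of AGO1 KO and AGO2 KO are the control samples of the AGO1 and AGO2 antibodies. For AGO1, trailers took 0.0874%, 0.0331% and 0.0184% of counts in the IP of WT and 0.127%, 0.0330% and 0.0181% in the IP of AGO1 KO. Replicate 1 was high in both groups, and the groups overlapped, with a log2 ratio of means of -0.36. Single libraries decided its sign: it was -1.20 without replicate 1 of the WT IP, 0.86 without replicate 1 of the AGO1 KO IP and 0.02 without replicate 3 of the WT IP, and 0.01 without replicate 1 of both groups, a setting chosen after seeing the data. With edgeR, 0 of 72 members tested were called higher or lower (1.27% of all features called), 1 had an unadjusted p under 0.05, and DESeq2 also called 0. Without replicate 1 of the WT IP, 1 member was called lower.

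For AGO2, trailers took a smaller share of counts in the IP of WT than in the IP of AGO2 KO. Trailers took 0.0157%, 0.0167% and 0.0141% of counts in the IP of WT against 0.0941%, 0.116% and 0.0690% in the IP of AGO2 KO, a mean of 0.0155% ± 0.00128 against 0.0929% ± 0.0233 (SD, n = 3), 5.99-fold lower with no overlap. By CPM 70 of the 72 members tested were lower in every WT library, as were 89.4% of all features, so the members followed the library as a whole. With TMM scaling 1 member was called higher and 0 lower (3.92% and 0.24% of all features), and DESeq2 called 1 higher. With library totals 0 were called higher and 68 lower, and the median of all features was then -2.17. The member called with TMM was MT-Glu-TTC, the trailer of mitochondrial tRNA-Glu, with 2.00, 3.45 and 1.66 CPM in the IP of WT against 2.78, 3.41 and 4.64, overlapping groups. Its log2 fold change was 1.52 ± 0.43 (SE; adjusted p = 0.0437, edgeR) and turned to -0.60 with library totals, and the call was lost in 5 of the 6 fits that leave out 1 library.

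The AGO1/2 KO cells keep AGO3, so the pan-AGO IP of those cells is not a background. With this antibody, the share of counts in trailers averaged 0.0167% ± 0.00387 for WT, 0.0238% ± 0.00709 for the AGO1/2 knockout and 0.0285% ± 0.0159 for the AGO1/2/3 knockout (SD, n = 3), and both knockouts overlapped WT. Against WT, the AGO1/2 KO IP gave 0 calls among 72 members with edgeR (2.64% of all features), 4 at an unadjusted p under 0.05, and 0 with DESeq2. The AGO1/2/3 KO IP gave 6 higher and 0 lower (9.86% and 10.3% of all features), of which 5 were mitochondrial; DESeq2 called 6 higher and 1 lower. MT-Phe-GAA had 40.4, 33.0 and 19.4 CPM in the IP of AGO1/2/3 KO against 2.94, 8.54 and 4.13 in the IP of WT, a log2 fold change of 2.44 ± 0.53 (SE; adjusted p = 0.00208, edgeR), with no overlap. MT-Gly-TCC, next to the start of ND3, had 6.17, 5.798 and 3.40 CPM against 1.47, 1.27 and 1.03, also without overlap, a log2 fold change of 1.79 ± 0.51 (SE; adjusted p = 0.0156, edgeR). MT-Gln-TTG and the nuclear trailer Pro-TGG-1-1 rose by log2 fold changes of 1.698 ± 0.58 and 1.63 ± 0.57 (SE; adjusted p = 0.0421 and 0.0436, edgeR). MT-Met-CAT and MT-Thr-TGT were the other members called, at 1.27 and 1.26 (adjusted p = 0.00946 and 0.0272, edgeR). Mature mitochondrial tRNA moved the same way, with 15 of 22 features higher and 0 lower, while 2 mature cytosolic tRNA features were higher and 161 lower of 389. The number of trailers called fell to 1 without AGO1/2/3 KO replicate 1, to 2 without its replicate 2 or WT replicate 2, and to 3 without WT replicate 1 or 3; MT-Phe-GAA kept its call in every such fit.

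In whole-cell RNA, the TNRC6 knockouts had more trailers called than any AGO knockout. Trailers of many nuclear genes fell in each of them, while Ser-TGA-1-1 did not pass the test. Of the 8 mitochondrial trailers tested, 4, 3 and 2 were called higher in TNRC6A, TNRC6B and TNRC6A/B KO, and 1 was called lower in each. Of 94 members tested, TNRC6A KO gave 6 higher and 54 lower (17.2% and 20.2% of all features called), TNRC6B KO 4 higher and 51 lower (16.4% and 20.4% of all features), and TNRC6A/B KO 3 higher and 51 lower (16.8% and 20.2% of all features). In each knockout, 2 of the members called lower would not have passed the filter without the WT libraries, where they are high. Their calls are no support for a fall. For 24 of the members called lower in each, no library of that knockout reached the filter's level. With library totals the splits were 13 higher and 38 lower, 13 and 42, and 15 and 39, and the median of all features then stood at 0.57, 0.57 and 0.58. The median of the tested nuclear members was -1.35, -1.47 and -1.31 and that of the 8 tested mitochondrial members 0.85, 0.89 and 0.55, beside -0.01, -0.04 and 0.01 over all features, a description of the members that passed the filter. Over the same comparisons mature cytosolic tRNA features fell in 406, 405 and 403 of 409, with medians of -3.55, -3.51 and -3.39, and mature mitochondrial tRNA features fell in 20, 17 and 18 of 22. The part of the library make-up described above in these changes was not tested.

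Of the 86 nuclear trailers tested, those of the histidine genes His-GTG-1-7 and His-GTG-1-8 were among those that fell furthest. Their counts are uncertain as a split between these close copies, so they are not independent of each other. His-GTG-1-7 had 24.8, 19.8 and 33.7 CPM in WT, against 4.86, 5.18 and 4.34 without TNRC6A, 5.11, 3.16 and 5.93 without TNRC6B, and 4.82, 5.01 and 4.56 without either. No knockout library reached WT, and the log2 fold changes were -3.05 ± 0.39, -3.13 ± 0.39 and -3.05 ± 0.38 (SE; adjusted p = 7.22e-08, 5.66e-08 and 5.07e-08, edgeR). His-GTG-1-8 had 23.4, 19.2 and 26.2 CPM in WT and 0.835 to 4.03 in the 9 knockout libraries, with log2 fold changes of -3.95 ± 0.44, -3.69 ± 0.43 and -3.92 ± 0.43 (SE). His-GTG-1-1, on chromosome 1, with 22.7, 16.8 and 18.04 CPM in WT and 2.59 to 9.95 in the knockouts, fell as well, with log2 fold changes of -2.37 ± 0.38, -2.59 ± 0.39 and -2.05 ± 0.37 (SE). His-GTG-1-6, on chromosome 9, had 42.6, 38.8 and 30.4 CPM in WT and 27.0 to 51.2 in the knockouts, overlapping groups, and did not pass the test, with log2 fold changes of -0.57 ± 0.32, -0.71 ± 0.32 and -0.51 ± 0.31 (SE; adjusted p = 0.159, 0.0756 and 0.206, edgeR).

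Several trailers of other amino acids were close to absent in TNRC6 knockouts. Cys-GCA-21-1 had 47 counts in WT and 0 without TNRC6A, at least 12.9-fold lower. It had 3 counts without TNRC6B, a ratio of 11.5 (95% counting interval 3.72 to 58.0), and 1 count without either, a ratio of 46.9 (8.02 to 1893). Arg-TCG-2-1 had 48 counts in WT and 1 in each knockout, ratios of 39.6 (6.77 to 1596), 35.4 (6.05 to 1426) and 47.9 (8.20 to 1932). Ala-TGC-6-1 had 71 counts in WT, 1 without TNRC6A and 3 without TNRC6B, ratios of 58.6 (10.2 to 2345) and 17.4 (5.73 to 86.6), and fell by a log2 fold change of -4.55 ± 0.49 in TNRC6A/B KO (SE; adjusted p = 1.69e-09, edgeR). Leu-AAG-1-2 went from 55 counts in WT to 1 without TNRC6A and 3 without TNRC6B, and Pro-CGG-1-2 from 26 to 1 in TNRC6B KO. Leu-CAA-1-2, whose gene holds an intron, had 8.40, 5.87 and 8.20 CPM in WT and 0.658, 0.278 and 0.634 in TNRC6A/B KO, a log2 fold change of -4.24 ± 0.46 (SE; adjusted p = 2.09e-09, edgeR). In these comparisons the calls held in every fit that leaves out 1 library, except that Cys-GCA-21-1 in TNRC6B KO was not refitted that way.

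Among abundant trailers, Val-TAC-3-1 had 151, 201 and 170 CPM in WT and 37.6 to 89.5 in the 9 TNRC6 knockout libraries, and Ile-AAT-5-2 had 89.3, 97.9 and 91.5 in WT and 31.1 to 51.0 there. Neither overlapped WT, and the log2 fold changes were -2.17 ± 0.29, -2.02 ± 0.29 and -1.77 ± 0.29 for Val-TAC-3-1 and -1.67 ± 0.30, -1.84 ± 0.30 and -1.69 ± 0.30 for Ile-AAT-5-2 (SE). Cys-GCA-2-4 fell by -2.23 ± 0.26, -2.46 ± 0.27 and -2.25 ± 0.26 (SE). Thr-CGT-3-1, the second highest trailer, fell by -1.04 ± 0.27, -1.20 ± 0.28 and -1.14 ± 0.27 (SE; adjusted p = 0.00273, 0.000669 and 0.00113, edgeR), but with library totals its values were -0.48, -0.59 and -0.57 and missed the threshold. Leu-TAG-3-1 had 181, 182 and 169 CPM in WT and 56.8 to 315 in the knockouts and did not pass the test.

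Ser-TGA-1-1 had 1376, 1361 and 995 CPM without TNRC6A, 1202, 1144 and 1149 without TNRC6B, and 1351, 1259 and 1283 without either, against 1059, 1077 and 892 in WT. By CPM TNRC6B KO and TNRC6A/B KO lay above WT in every library. The log2 fold changes were -0.26 ± 0.31, -0.42 ± 0.31 and -0.23 ± 0.31 with TMM (SE; adjusted p = 0.553, 0.317 and 0.605, edgeR) and 0.30, 0.21 and 0.36 with library totals, so that the sign depends on the scaling and no call was made with either. Its share of trailer counts was 39.1% ± 2.54 in WT, 54.2% ± 0.666 without TNRC6A, 52.4% ± 3.02 without TNRC6B and 54.1% ± 2.32 without either (SD, n = 3), with no overlap with WT.

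The mitochondrial trailers as a sum made 17.2, 18.2 and 13.1 CPM in WT and 24.2 to 50.1 in the TNRC6 knockouts, with no overlap. By CPM 40%, 42.5% and 40.4% of all features tested also lay above WT without overlap in TNRC6A, TNRC6B and TNRC6A/B KO. MT-Gln-TTG had 2 counts in WT and 26, 34 and 36 in TNRC6A, TNRC6B and TNRC6A/B KO, ratios of 15.8 (95% counting interval 3.95 to 137), 23.1 (5.91 to 198) and 18.03 (4.64 to 155). It passed the filter through TNRC6 knockout libraries alone, so its calls are no support for a rise of mitochondrial trailers. MT-Phe-GAA had 2.56, 1.57 and 1.82 CPM in WT and 5.18 to 13.6 in the knockouts, and rose by log2 fold changes of 1.04 ± 0.35, 1.705 ± 0.33 and 1.17 ± 0.34 (SE; adjusted p = 0.0175, 9.23e-05 and 0.00591, edgeR). MT-Thr-TGT rose by 1.22 ± 0.32 without TNRC6A and 1.31 ± 0.32 without TNRC6B (SE; adjusted p = 0.00243 and 0.0012, edgeR), and had 0.58 ± 0.33 without either (SE; adjusted p = 0.17, edgeR). MT-Pro-TGG had 2.92, 5.48 and 0.911 CPM in WT and 17.8, 6.68 and 7.24 in TNRC6A KO, a log2 fold change of 1.157 ± 0.45 (SE; adjusted p = 0.0394, edgeR), lost in 3 fits without 1 library. MT-Tyr-GTA went the other way, by -2.43 ± 0.47, -1.42 ± 0.42 and -2.10 ± 0.43 (SE; adjusted p = 7.85e-05, 0.0067 and 0.000172, edgeR), and its TNRC6B KO libraries overlapped WT. Only 1 WT library and no TNRC6 knockout library reached the filter's level for it. Its trailer lies where tRNA-Cys is encoded on the same strand, in a gene that spans positions 5761 to 5826 and meets that of tRNA-Tyr at 5826.

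The few nuclear trailers that rose in TNRC6 knockouts did so by less than the largest falls. The initiator trailer iMet-CAT-1-4 had 4.54, 3.23 and 7.24 CPM in TNRC6A KO against 1.096, 1.37 and 1.64 in WT, a log2 fold change of 1.28 ± 0.49 (SE; adjusted p = 0.0383, edgeR). Arg-CCT-2-1 had 8.07, 11.4 and 6.23 CPM in TNRC6B KO against 2.19, 1.96 and 2.73, a log2 fold change of 1.28 ± 0.40 (SE; adjusted p = 0.0114, edgeR). Thr-TGT-5-1 had 2.19, 1.39 and 2.41 CPM in TNRC6A/B KO against 0.365, 0.392 and 0.729, a log2 fold change of 1.46 ± 0.53 (SE; adjusted p = 0.0301, edgeR). Thr-TGT-5-1 passed the filter through TNRC6 knockout libraries alone, where it is high, so its test is no support for a rise. None of these groups overlapped, and these 3 calls were lost in 4, 2 and 2 of the fits that leave out 1 library.

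By amino acid, the sums show the same split. In TNRC6A, TNRC6B and TNRC6A/B KO 12, 14 and 11 of 21 sums (20 nuclear and the mitochondrial one) lay below WT in every library. Above WT in every library lay 2, 2 and 3. Of all single features tested, 14.7%, 14.8% and 13.6% were below and 40%, 42.5% and 40.4% above in the same way. A sum over members is not like a single feature, so these shares are no direct background for the sums. The valine sum averaged 209 CPM in WT and 77.8, 88.2 and 97.2 in the TNRC6A, TNRC6B and TNRC6A/B knockouts. Histidine averaged 109.7 and 51.0, 49.3 and 54.99, cysteine 88.5 and 37.4, 36.9 and 43.6, and initiator methionine 40.2 and 11.1, 12.9 and 16.7, all without overlap. Arginine and leucine sums overlapped WT in all 3 knockouts, at 69.5 to 81.2 CPM against 73.3 for arginine and 206 to 223 against 207 for leucine. These sums carry no test.

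Between the 3 TNRC6 knockouts, a comparison chosen after seeing the data, 0 of 94 members were called by edgeR in each pair, with 5 at an unadjusted p under 0.05 for TNRC6A/B against TNRC6A KO (0.181% of all features called), 4 for TNRC6A/B against TNRC6B KO (0.484%) and 2 for TNRC6B against TNRC6A KO (0.234%); DESeq2 was not run there. The result does not show that the knockouts act alike.

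**Figure D4:**
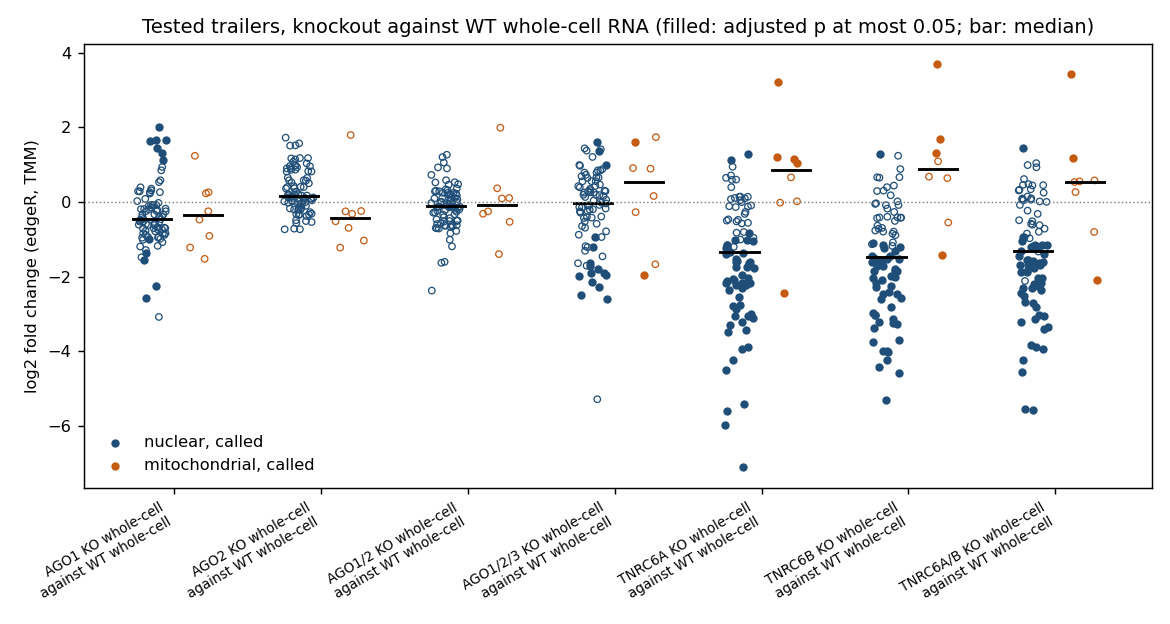
Log2 fold change (edgeR, TMM) of each tested nuclear (left cloud) and mitochondrial (right cloud) trailer in the 7 knockouts against WT whole-cell RNA; filled points are called at an adjusted p of at most 0.05 and bars are medians. The nuclear medians of the TNRC6 knockouts lie at -1.35, -1.47 and -1.31, against -0.45 to 0.16 in the 4 AGO knockouts.

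In AGO1 KO whole-cell RNA a few trailers differed from WT, with opposite directions for genes of the same amino acid. AGO1/2 KO cells also lack AGO1, and 0 of 94 members were called there, or 1 with the replicate number as a block. AGO1 KO was not compared with AGO1/2 KO, and the part of AGO1 in these differences was not tested. AGO1 KO gave 7 higher and 5 lower of 94 members tested (3.79% and 3.88% of all features called), and 33 members had an unadjusted p under 0.05. DESeq2 gave 7 higher and 4 lower. Mature cytosolic tRNA features were called higher in 29 and lower in 57 of 409. The count of trailers called fell to 4 without WT replicate 2 and to 7 without AGO1 KO replicate 3, and the highest count without 1 library was 17.

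The threonine trailers Thr-CGT-2-1 and Thr-CGT-4-1 rose. Thr-CGT-2-1, on chromosome 16, had 53.8, 47.3 and 64.1 CPM in AGO1 KO against 16.1, 13.7 and 18.8 in WT, a log2 fold change of 1.67 ± 0.31 (SE; adjusted p = 0.000656, edgeR). Thr-CGT-4-1 had 26.9, 11.1 and 21.6 CPM against 5.85, 6.27 and 5.10, a log2 fold change of 1.66 ± 0.34 (SE; adjusted p = 0.00191, edgeR). Neither overlapped WT, and both calls held without any 1 library. Thr-CGT-3-1 had 160, 182 and 101 CPM against 194, 255 and 190, without overlap, and did not pass the test (adjusted p = 0.208, edgeR). Arg-TCG-2-1 rose by 1.63 ± 0.38, a call lost without WT replicate 2, and Leu-AAG-1-1 by 2.00 ± 0.58, lost without AGO1 KO replicate 3, WT replicate 2 or WT replicate 3 (SE; adjusted p = 0.0057 and 0.0254, edgeR). Leu-AAG-1-1 would not have passed the filter without the AGO1 KO libraries, so its test is no support for a rise.

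Within the His-GTG-1 family, copies moved apart. His-GTG-1-7 had 56.6, 55.7 and 96.4 CPM in AGO1 KO against 24.8, 19.8 and 33.7 in WT, a log2 fold change of 1.31 ± 0.33 (SE; adjusted p = 0.0105, edgeR). His-GTG-1-8 had 58.6, 48.7 and 96.5 CPM against 23.4, 19.2 and 26.2, a log2 fold change of 1.46 ± 0.34 (SE; adjusted p = 0.00561, edgeR). Both calls were lost without AGO1 KO replicate 3 and without WT replicate 2, that of His-GTG-1-7 also without WT replicate 1. His-GTG-1-6 fell, with 13.4, 15.1 and 11.8 CPM against 42.6, 38.8 and 30.4, a log2 fold change of -1.54 ± 0.32 (SE; adjusted p = 0.0024, edgeR), a call that held without any 1 library. None of these groups overlapped. The histidine sum averaged 185 CPM in AGO1 KO against 109.7 in WT, with no overlap.

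**Figure D5:**
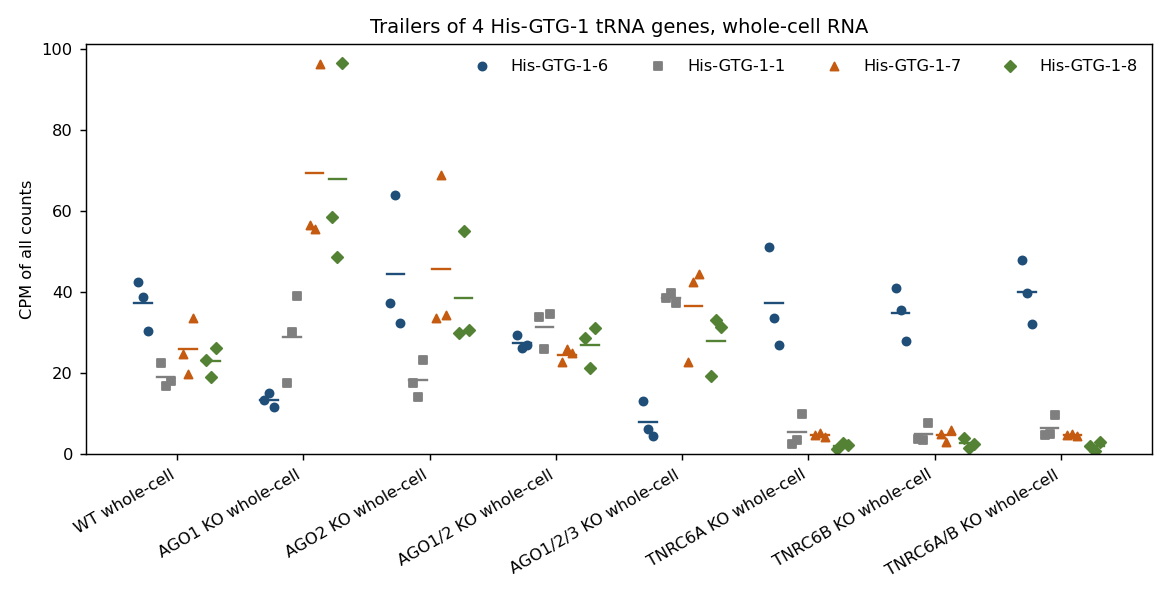
CPM of the trailers of 4 His-GTG-1 genes in each whole-cell library, with bars at the group means. In AGO1 KO the trailers of His-GTG-1-7 and His-GTG-1-8 lie above WT and that of His-GTG-1-6 below it, and in the TNRC6 knockouts His-GTG-1-6 overlaps WT while the others lie below it.

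Cysteine and glycine members fell in AGO1 KO. Cys-GCA-9-4 had 0.608, 0.823 and 0.831 CPM against 3.65, 6.27 and 2.73 in WT, a log2 fold change of -2.57 ± 0.47 (SE; adjusted p = 0.000553, edgeR), with no overlap. Gly-TCC-2-1 fell by -2.25 ± 0.55 and Cys-GCA-4-1 by -1.37 ± 0.43 (SE; adjusted p = 0.00873 and 0.0433, edgeR), and the latter call was lost without any 1 of the 6 libraries, the former without AGO1 KO replicate 1 or WT replicate 2. The abundant Ser-TGA-1-1 had 841, 771 and 596 CPM against 1059, 1077 and 892, without overlap, and did not pass the test, at -0.53 ± 0.31 (SE; adjusted p = 0.348, edgeR).

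AGO2 KO and AGO1/2 KO whole-cell RNA gave 0 calls of 94 members with edgeR and 0 with DESeq2, where 0.16% and 4% of all features were called, and 21 and 8 members had an unadjusted p under 0.05. Thr-CGT-3-1 had 190, 134 and 169 CPM without AGO2 and 193, 188 and 233 without AGO1 and AGO2, against 194, 255 and 190 in WT. Ile-AAT-5-2 had 120, 202 and 125 CPM in AGO2 KO, all above WT, and 91.0, 83.2 and 97.7 in AGO1/2 KO, which overlapped WT. Neither passed the test. His-GTG-1-6, lower in AGO1 KO, had 29.4, 26.2 and 27.0 CPM in AGO1/2 KO, below every WT library, and did not pass (-0.41 ± 0.32, SE; adjusted p = 0.57, edgeR).

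AGO1/2/3 KO gave 4 higher and 14 lower (10.9% and 12.3% of all features called), 2 and 26 with library totals, 10 and 11 with the size factors of DESeq2 in edgeR, and 5 and 9 with DESeq2. The median of all features with library totals was -0.45. Without AGO1/2/3 KO replicate 2 the count fell to 11. Of the members called lower, 1 would not have passed the filter without the WT libraries, where it is high, so its call is no support for a fall. With TMM the median over the 94 tested members was a log2 fold change of -0.004, beside -0.09 over all features, so the trailers had no common direction. Mature cytosolic tRNA had 216 features higher and 10 lower of 409, with a median of 0.87. Other RNA polymerase III transcripts had 8 higher and 2 lower of 19, with a median of 0.93.

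Glycine, cysteine and histidine trailers were among those that fell in AGO1/2/3 KO. Gly-GCC-1-4 had 28.97, 15.3 and 14.8 CPM against 77.1, 124 and 90.6 in WT, a log2 fold change of -1.96 ± 0.33 (SE; adjusted p = 3.85e-05, edgeR). Cys-GCA-2-1, in an intron of LINC02435, had 2.20, 1.53 and 1.32 CPM against 10.2, 11.2 and 9.84, a log2 fold change of -2.29 ± 0.41 (SE; adjusted p = 7.8e-05, edgeR). His-GTG-1-6 had 13.2, 6.35 and 4.50 CPM against 42.6, 38.8 and 30.4, a log2 fold change of -1.91 ± 0.35 (SE; adjusted p = 0.000137, edgeR). None of the 3 overlapped WT, and their calls held without any 1 library. Val-TAC-3-1 fell by -0.93 ± 0.29 (SE; adjusted p = 0.016, edgeR), a call lost without AGO1/2/3 KO replicate 2 or 3 or WT replicate 3. Cys-GCA-21-1 and Gly-GCC-1-3 fell by -2.60 ± 0.78 and -2.49 ± 0.74 (SE; adjusted p = 0.0146 and 0.0137, edgeR), each lost in 2 of the fits that leave out 1 library. Arg-TCG-4-1 had 3 counts against 26, a ratio of 5.97 (1.83 to 30.8), with overlapping groups and a call lost in 4 of those fits.

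The trailers that rose in AGO1/2/3 KO were MT-Phe-GAA, His-GTG-1-1, Leu-CAG-2-2 and Thr-CGT-2-1. MT-Phe-GAA had 6.97, 3.72 and 4.24 CPM against 2.56, 1.57 and 1.82 in WT, a log2 fold change of 1.62 ± 0.37 (SE; adjusted p = 0.00146, edgeR). His-GTG-1-1 had 38.5, 39.9 and 37.3 CPM against 22.7, 16.8 and 18.04, a log2 fold change of 1.36 ± 0.34 (SE; adjusted p = 0.00326, edgeR). Neither overlapped WT. Leu-CAG-2-2 and Thr-CGT-2-1 overlapped WT, had log2 fold changes of 1.601 ± 0.60 and 1.00 ± 0.31 (SE; adjusted p = 0.0489 and 0.019, edgeR), and missed the threshold with library totals. Ser-TGA-1-1 held 53.1% ± 3.43 of trailer counts (SD, n = 3), above every WT library, at 1694, 1213 and 932 CPM, which overlapped WT, and did not pass the test (0.69 ± 0.32, SE; adjusted p = 0.112, edgeR).

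Against AGO1/2 KO, a comparison chosen after seeing the data, AGO1/2/3 KO gave 4 higher and 5 lower (4.47% and 4.93% of all features called). His-GTG-1-6 was again lower, with 13.2, 6.35 and 4.50 CPM against 29.4, 26.2 and 27.0, a log2 fold change of -1.51 ± 0.36 (SE; adjusted p = 0.00698, edgeR), and Ile-AAT-5-3 had 1.83, 3.28 and 4.50 CPM against 10.4, 12.7 and 9.86, a log2 fold change of -1.39 ± 0.36 (SE; adjusted p = 0.0135, edgeR). Neither overlapped, and each call was lost in some fits without 1 library, 2 for His-GTG-1-6 and 3 for Ile-AAT-5-3.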

How the data were processed

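Small RNA of whole cells and of AGO immunoprecipitates was sequenced after TruSeq Small RNA library preparation, per the labels' protocols. The authors deposited raw counts per feature for 45 libraries, with no normalization. Adapters were trimmed with cutadapt 1.16 and reads aligned with Bowtie 1.1.2, with GRCh38 named as the build, per the submitters' processing notes. The sources used here do not give the length counted as a trailer or how reads were assigned to tRNA copies.

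Counts were tested with edgeR 4.0.16 (R 4.3.3): filterByExpr with a minimum count of 10 and a minimum total of 15, TMM over all features, quasi-likelihood F tests in separate fits of 24 whole-cell, 21 IP and 12 WT libraries, and Benjamini-Hochberg adjustment over all features tested at 0.05. DESeq2 1.42.0 and other scalings were alternatives. SE is the log2 fold change over the root of F. Sums over members were described with no test. The edgeR steps were also run on simulated counts with a fixed spread, for single pairs of groups and not for the full fits. No shift in library make-up was simulated, so this checks little of the IP and TNRC6 comparisons. Members and lists were chosen with earlier results of these data known. Named members are the 12 highest, up to 4 rises and 4 falls a comparison (mean of at least 5 counts in the higher group), the highest of 6 amino acids, and those at the limit of 50; others were chosen after their values were seen.

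Same-numbered replicates deviated together (every correlation over 0.1) only for AGO1 IP of WT against AGO1 KO (0.640, 0.377 and 0.780), TNRC6A/B against TNRC6B KO (0.221, 0.218 and 0.219) and TNRC6B against TNRC6A KO (0.336, 0.256 and 0.307), and with the replicate number as a block each still gave 0 calls.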

Additional observations from a re-analysis of the deposited data

Results flagged for a closer look

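In 10 cases a trailer's CPM was lower than WT in every whole-cell library of an AGO knockout, and higher than WT in every IP library of the same knockout. The differences between whole-cell RNA and IP were not tested, and none of the whole-cell values passed the test across all features. In AGO2 KO the log2 ratio of mean CPM to WT was -0.37 in whole-cell RNA and 2.89 in the AGO2 IP for Thr-CGT-3-1, -0.46 and 2.65 for Val-TAC-3-1, -0.80 and 2.55 for Gly-GCC-1-4, and -0.57 and 3.46 for Gln-TTG-2-1. It was -0.34 and 2.43 for Ser-GCT-6-1, -0.54 and 3.49 for Val-CAC-1-1, -1.08 and 1.51 for MT-Thr-TGT, and -0.56 and 1.80 for MT-Tyr-GTA. Of all features tested in whole-cell RNA, 7.74% were lower in every library of AGO2 KO than in WT, as were 8.89% in AGO1 KO and 12.5% in AGO1/2 KO. In the AGO2 IP 89.4% of all features were higher in AGO2 KO in every library, so the trailers followed the whole table there. Pro-TGG-1-1 had -0.59 in whole-cell RNA and 0.81 in the AGO1 IP for AGO1 KO, and -0.68 and 1.21 in the pan-AGO IP for AGO1/2 KO. Of all features, 4.12% were higher in every AGO1 IP library of AGO1 KO and 17.2% in every pan-AGO IP library of AGO1/2 KO.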

How the results depend on the processing

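With library totals in place of TMM, members called went from 0 to 1 in AGO1/2 KO, from 18 to 28 in AGO1/2/3 KO, from 1 to 68 for the WT AGO2 IP against AGO2 KO, and from 0 to 2 in the pan-AGO IP of AGO1/2 KO. Without a filter on low counts they were 1 in AGO2 KO, 2 in AGO1/2 KO, 5 in the AGO2 IP, 1 in the pan-AGO IP of AGO1/2 KO, and 114 and 129 for the AGO1 and pan-AGO IPs against whole-cell RNA (63 and 68 with the filter). With the replicate number as a block 1 member was called in AGO1/2 KO (0 without it), and no other count moved by over 1.5 times. DESeq2 and its size factors in edgeR moved no count by over 1.5 times. Leaving out 1 library gave 4 to 17 calls in AGO1 KO, 11 to 20 in AGO1/2/3 KO, 0 to 1 in AGO2 KO, the AGO1 IP and the AGO2 IP, and 1 to 6 in the pan-AGO IP of AGO1/2/3 KO. The log2 ratio of shares became -3.23 (from -2.58) for the AGO2 IP of WT against AGO2 KO, -4.38 (from -4.06) and -3.55 (from -3.95) for the AGO2 and pan-AGO IPs against whole-cell RNA when Ensembl transcripts were left out of the total. The causes were not tested. IP libraries hold few trailer counts, so single members there are limited by depth.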
